A study of Homo sapiens with 12 samples.

Results

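The genes described here are POU5F1, SOX2 and KLF4, the reprogramming factors abbreviated as OSK, and 7 genes of the pluripotency network downstream of them: NANOG, LIN28A, LIN28B, SALL4, DPPA4, TDGF1 and UTF1. These 10 genes were chosen by name, and each matched a single line of the deposited table, out of 40591 lines that carry a gene symbol. Reads were counted in 12 poly(A) RNA libraries of ARPE-19, an established human cell line from retinal pigment epithelium (RPE), in 4 groups of 3. WT names ARPE-19 cells for which no introduced open reading frame (ORF) is given. The other groups are stable lines: GFP carries the fluorescent protein, GSTA4 a glutathione S-transferase of the alpha class, and OSK the reprogramming factors. The ORF lines were sampled after 4 days of expression. The labels do not give the promoter that drives an ORF, the species or extent of the ORF sequence, or whether the 3 libraries of a group are separate cultures or 1 line sampled repeatedly, so p-values may measure only technical spread, and the ORF and other differences between lines cannot be told apart.

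In pluripotent stem cells POU5F1 (OCT4) and SOX2 bind side by side on composite DNA elements and maintain their own genes, NANOG and other members of the network. KLF4, a zinc finger factor, is added in reprogramming because it helps the other factors to open somatic chromatin. Activation of the endogenous genes, including LIN28A, SALL4, DPPA4, TDGF1 and UTF1, is a late step, whereas the introduced factors are present from the start. RPE cells normally lack this network. In partial reprogramming the factors are expressed for a limited time with the aim of changing a cell without making it pluripotent.

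The sequence before the transcription start of 6 of the 10 genes could be read from the RefSeq promoter table (GRCh38.p14), in 7 windows, since LIN28B has 2 starts there. POU5F1, LIN28A, SALL4 and TDGF1 had no entry. The 250 bases before the start were searched on both strands for 5 short motifs: the octamer ATGCAAA bound by POU factors, CATTGTT for SOX factors, GGGTGTG and GGGCGTG for KLF factors, and the composite TTTGCATNACAATG, whose first 7 letters are the octamer on the other strand. The NANOG, LIN28B and SOX2 windows below are shown because they carry a motif of an expressed factor. The DPPA4 window is an example of a late network marker with none. The UTF1 window held none either and is not shown. Each window below is printed in the direction of transcription and ends at the base before the start, with matched motifs in capitals.
NANOG, chr12:7789152-7789401, plus strand: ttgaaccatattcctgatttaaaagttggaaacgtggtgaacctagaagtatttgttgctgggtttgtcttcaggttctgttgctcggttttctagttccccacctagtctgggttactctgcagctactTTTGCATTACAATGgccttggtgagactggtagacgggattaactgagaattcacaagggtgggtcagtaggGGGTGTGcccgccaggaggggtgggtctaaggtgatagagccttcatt
LIN28B, chr6:104940715-104940964, plus strand: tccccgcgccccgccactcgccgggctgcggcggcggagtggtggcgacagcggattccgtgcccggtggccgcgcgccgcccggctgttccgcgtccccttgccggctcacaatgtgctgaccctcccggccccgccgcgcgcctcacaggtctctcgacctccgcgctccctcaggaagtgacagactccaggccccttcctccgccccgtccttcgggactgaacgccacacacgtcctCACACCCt
SOX2, chr3:181711675-181711924, plus strand: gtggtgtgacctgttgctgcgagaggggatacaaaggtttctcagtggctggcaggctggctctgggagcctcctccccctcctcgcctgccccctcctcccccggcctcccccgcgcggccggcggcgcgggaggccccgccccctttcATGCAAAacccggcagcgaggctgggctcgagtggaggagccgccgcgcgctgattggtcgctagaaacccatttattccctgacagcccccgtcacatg
DPPA4, chr3:109337547-109337796, minus strand: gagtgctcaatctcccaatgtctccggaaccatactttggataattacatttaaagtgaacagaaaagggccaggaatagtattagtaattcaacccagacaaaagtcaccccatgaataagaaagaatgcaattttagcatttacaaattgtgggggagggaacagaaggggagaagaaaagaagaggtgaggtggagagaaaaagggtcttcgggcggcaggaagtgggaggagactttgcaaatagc

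The NANOG window held the composite element from 120 to 107 bases before the start and GGGTGTG from 48 to 42 bases before it. Of 35116 promoter windows of this length, 2 held the composite, 0.0057% of all, and NANOG was the member among them. The octamer alone was in 3.94% of windows, and among members in NANOG and SOX2. In the SOX2 window it lay from 100 to 94 bases before the start. GGGTGTG was in 6.63% of windows, and in LIN28B it lay on the other strand from 8 to 2 bases before the start. CATTGTT and GGGCGTG were in 2.87% and 7.98% of all windows and in none of the 7 member windows. The NANOG and DPPA4 windows had 4 and 3 CpG sites, against 33 in the LIN28B window shown, 20 in SOX2, 32 in UTF1 and a median of 11 over all windows. A match of letters is a description of the window and not a bound site.

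The libraries held from 12630675 to 17045454 reads. A floor of 3 reads, the most that a count of 0 allows, corresponded to 0.177 to 0.228 CPM (the read count relative to the library's total, here after TMM scaling of library sizes), for counting error only. GFP replicate 1 stood apart: it had 9308 named genes with only 1 to 5 reads, against 4246 to 6268 in the other 11 libraries, and results below that rest on it are given also without it. WT replicate 1 differed most from its own group. Its chi-square per degree of freedom over tested genes was 14.2 and 16.7 against WT replicates 2 and 3. Between WT replicates 2 and 3 it was 2.50, and for the pairs of GFP replicate 1 it was 5.33 and 6.78. Below, differences from WT other than those of POU5F1, SOX2 and KLF4 include WT replicate 1. The RPE label was checked on 19 matched markers, of which 13 to 16 were above the floor in a library. PMEL and MITF, a melanosome protein and the pigment cell regulator, stood at 110.8 and 145.7 CPM in OSK. RPE65, the visual cycle isomerase that defines mature RPE, had at most 10 reads in any library.

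The 3 introduced factors were the only members with more than 3 reads in any OSK library. POU5F1, on chromosome 6 from 31164337 to 31180731 (GRCh38), had 11385, 12068 and 10850 reads in the OSK libraries, 5, 1 and 1 in WT, 5, 2 and 2 in GFP, and 0, 2 and 0 in GSTA4. SOX2, a single-exon gene on chromosome 3 from 181711924 to 181714436, had 8890, 9836 and 8944 reads in OSK, 5, 0 and 1 in GFP, and 0 in the 6 WT and GSTA4 libraries. KLF4, on chromosome 9 from 107484852 to 107490482, had 13333, 14575 and 12963 reads in OSK, 24, 15 and 15 in WT, 12, 11 and 4 in GFP, and 42, 9 and 20 in GSTA4. For each factor every OSK library lay above the other 9 libraries. Among all tested genes, the OSK libraries lay above those of GFP without overlap for 27.5%, above WT for 26.9% and above GSTA4 for 28.8%. Together the factors took from 0.222% to 0.231% of the reads of an OSK library.

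**Figure D1:**
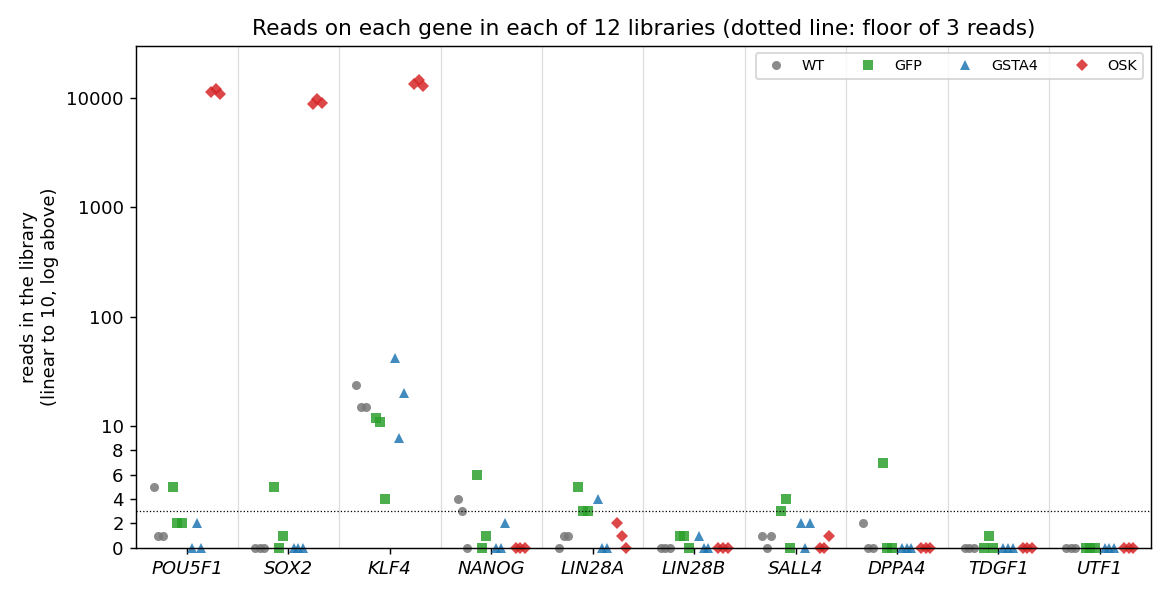
Reads on each of the 10 genes (horizontal axis) in each of 12 libraries (vertical axis, linear to 10 reads and logarithmic above, dotted line at the floor of 3 reads); symbols mark the groups. POU5F1, SOX2 and KLF4 lie between 8890 and 14575 reads in OSK, and the other 7 genes have at most 2 reads in any OSK library.

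As levels, POU5F1 stood at 778.1 CPM ± 26.8 (SD, n = 3) in OSK, SOX2 at 627.3 ± 5.01 and KLF4 at 926.6 ± 18.8, so that the OSK libraries differed among themselves by coefficients of variation of 3.44%, 0.799% and 2.03%. Per kilobase of annotated coding sequence the levels were closer to each other, at 720.5 CPM per kb ± 24.8 for POU5F1, 659.7 ± 5.27 for SOX2 and 644.8 ± 13.1 for KLF4. Per kilobase of all annotated exons they were 268.7 ± 9.24, 249.6 ± 1.99 and 253.2 ± 5.15. POU5F1 was the highest on both length scales, while SOX2 and KLF4 changed places between them. Which bases the ORFs contain is not stated, so neither length is known to be the right one, and the counts do not separate reads of an ORF from reads of the endogenous gene.

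Of the 10 genes, 3 had enough reads to be tested, and POU5F1 and SOX2 passed that filter only through the OSK libraries. In OSK against GFP the 3 were higher, where 23.1% of all tested genes were higher. Since passing the filter already requires a high OSK level for 2 of them, the count carries no weight of its own. The same 3 were higher in OSK against WT, where 22.7% of tested genes were higher, and in OSK against GSTA4, where 24.1% were. These 3 comparisons share the OSK libraries. Against WT, KLF4 differed by 9.64 on the log2 scale (SE 0.173, edgeR adjusted p 7.49e-20). Against GSTA4, KLF4 differed by 9.15 (SE 0.168, edgeR adjusted p 8.48e-20).

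Because the other groups held so few reads, sizes are given as pooled ratios with exact 95% counting intervals. These intervals cover counting error only and leave out spread between libraries, so they can be too narrow. KLF4 was 801.1-fold higher in OSK than in WT (613.9 to 1067), 1437-fold higher than in GFP (987.3 to 2180) and 569.5-fold higher than in GSTA4 (451.4 to 729.4), or 891.0-fold without GSTA4 replicate 1. That last value lies outside the counting interval, and KLF4 had 42, 9 and 20 reads in the GSTA4 libraries. POU5F1 was 5187-fold higher than in WT (2517 to 12902) and 3617-fold higher than in GFP (1905 to 7912). WT replicate 1 and GFP replicate 1 held 5 reads each of these, and without them the ratios were 11898 (3293 to 98248) and 5580 (2179 to 20479). Against the 2 POU5F1 reads of GSTA4 the ratio was 16969, with an interval from 4697 to 140126. Both reads were in GSTA4 replicate 2, without which only a bound of at least 3775-fold could be given, and without GSTA4 replicate 1 or 3 the ratio was 10844 or 11312. SOX2 was at least 2851-fold higher than in WT and at least 2790-fold higher than in GSTA4, taking the floor per library, and 4377-fold higher than in GFP (2011 to 11927). Without GFP replicate 1, which held 5 of the 6 reads, the last ratio was 18003 on 1 read (3231 to 711086), and without GFP replicate 2 it was 2917 (1340 to 7949).

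Outside OSK, KLF4 was the 1 factor with reads in every library, at 1.16 CPM ± 0.308 in WT, 0.657 ± 0.339 in GFP and 1.57 ± 1.01 in GSTA4. Its order was GSTA4, WT, GFP, and the libraries of neighbouring groups overlapped. GSTA4 against GFP was past the threshold for KLF4 (log2 1.32, SE 0.412, edgeR adjusted p 0.0202), although these groups overlapped too, and GFP against WT was not (log2 -0.83, SE 0.440, adjusted p 0.187). Without GSTA4 replicate 1, the library with 42 reads, the difference from GFP was 0.68 (adjusted p 0.246), and without GFP replicate 3, with 4 reads, it was 0.92 (adjusted p 0.113). SOX2 was past the threshold in GSTA4 against GFP (adjusted p 0.0421) and in GFP against WT (0.0468) by edgeR on 6 GFP reads, of which 5 were in GFP replicate 1. Without that library the adjusted p-values were 0.348 and 0.344. The SOX2 call in GFP against WT held only when GFP replicate 2 or 3 was the library left out, and that in GSTA4 against GFP was lost without any 1 OSK or GSTA4 library as well (edgeR adjusted p up to 0.0984 for these). Members past the threshold thus numbered 2 in GSTA4 against GFP, where 29.2% of tested genes were called, and 1 in GFP against WT, where 22.2% were.

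The 7 downstream genes were not detected above the floor in any OSK library. NANOG, the homeodomain factor that marks an established network (chromosome 12 from 7787794 to 7799141), had 0 reads in all 3 OSK libraries. It had 4, 3 and 0 reads in WT, 6, 0 and 1 in GFP, and 0, 0 and 2 in GSTA4. Its window is the one printed above with the composite element and the KLF-like motif. NANOGP8, a near copy of NANOG whose reads may be exchanged with it, had 0, 1 and 0 reads in OSK and at most 5 elsewhere.

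The RNA-binding proteins LIN28A and LIN28B block maturation of let-7 microRNAs. LIN28A had 2, 1 and 0 reads in OSK, against 0, 1 and 1 in WT, 5, 3 and 3 in GFP, and 4, 0 and 0 in GSTA4. LIN28B, which has the KLF-like motif next to its start, had 0 reads in OSK and WT, 1, 1 and 0 in GFP, and 1, 0 and 0 in GSTA4. Neither gene had more reads in OSK than in GFP.

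SALL4, a zinc finger factor of early embryonic cells, had 0, 0 and 1 reads in OSK, 1, 0 and 1 in WT, 3, 4 and 0 in GFP, and 2, 0 and 2 in GSTA4. DPPA4, a chromatin-associated protein of pluripotent cells, had 0 reads in OSK and GSTA4, 2, 0 and 0 in WT, and 7, 0 and 0 in GFP. TDGF1, a co-receptor for NODAL, had 1 read in all, in GFP replicate 2, and UTF1, a chromatin factor of undifferentiated cells and a known target of the POU5F1 and SOX2 pair, had 0 in the 12 libraries. For NANOG, LIN28B, DPPA4, TDGF1 and UTF1 a count of 0 in every OSK library allows up to 0.190 to 0.213 CPM in a library. Levels below that were not detectable at this depth.

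Summed over the 7 genes, OSK had 2, 1 and 1 reads, WT had 7, 4 and 2, GFP had 22, 9 and 4, and GSTA4 had 7, 0 and 4. As pooled rates these were 0.0875 CPM (without TMM scaling) in OSK (exact Poisson 95% interval 0.0239 to 0.224), 0.282 in WT (0.150 to 0.482), 0.847 in GFP (0.590 to 1.18) and 0.254 in GSTA4 (0.127 to 0.455). These intervals too cover counting error only and leave out spread between libraries. OSK was the lowest of the 4 groups, and its interval overlapped those of WT and GSTA4. GFP replicate 1 held 22 of the 35 GFP reads, including 6 of 7 for NANOG and 7 of 7 for DPPA4. The same library had the most genes with 1 to 5 reads; the part of that excess in these counts was not tested. The GFP sum without it was 13 reads.

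**Figure D2:**
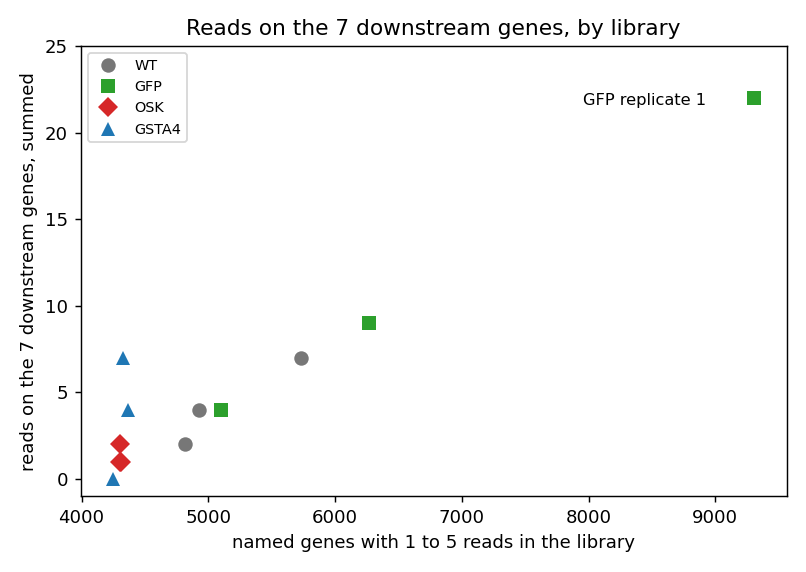
Reads summed over NANOG, LIN28A, LIN28B, SALL4, DPPA4, TDGF1 and UTF1 (vertical axis) against the number of named genes with 1 to 5 reads in the same library (horizontal axis), 1 point per library. The OSK libraries have 1 or 2 reads, and GFP replicate 1 lies alone at 22 reads and 9308 genes.

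When the count filter was dropped, edgeR tested 31531 genes and 6 of the 7 downstream genes, UTF1 having no reads. In OSK against GFP the 6 had negative fitted changes and none was past the threshold, with adjusted p-values from 0.137 for NANOG to 0.518 for TDGF1. Before adjustment 1 of the 6, NANOG, had a p under 0.05 (0.0388). NANOG had p 0.0439 and edgeR adjusted p 0.169 in OSK against WT, and adjusted p 0.494 in OSK against GSTA4. Those numbers describe reads near the floor and do not show that the groups are alike.

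The POU5F1 counts were accompanied by counts on its pseudogenes, retrotransposed or duplicated copies that are not thought to make the factor. POU5F1P3, on chromosome 12 from 8133772 to 8134849, is 97.96% identical to the POU5F1 transcript over 1080 bases. It had 167, 177 and 166 reads in OSK and at most 8 in any other library. POU5F1P4, on chromosome 1 from 155433178 to 155434262 and 97.05% identical over 1086 bases, had 89, 84 and 85 reads in OSK and at most 3 elsewhere. Both passed the count filter only through the OSK libraries, so their calls in OSK against GFP (fitted log2 6.25 and 5.27) carry no weight beyond these reads.

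In each OSK library POU5F1P3 held 1.47%, 1.47% and 1.53% as many reads as POU5F1, and POU5F1P4 held 0.782%, 0.696% and 0.783%. The less similar POU5F1P5 (85.88% identical over 687 bases) had 0, 0 and 3 reads in OSK and POU5F1P6 (76.99% over 1069 bases) had 1 in each. Outside OSK they had up to 8 and up to 10. The share of pseudogene reads that came from POU5F1 RNA was not tested. Reads of POU5F1 may likewise be incomplete by what its copies took up.

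**Figure D3:**
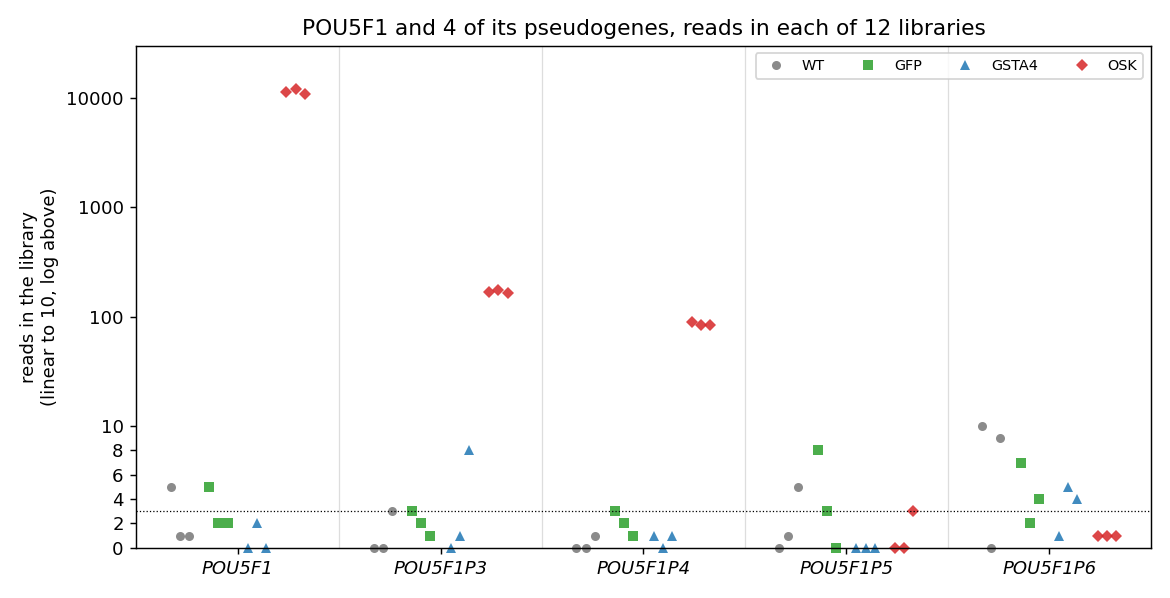
Reads on POU5F1 and 4 of its pseudogenes (horizontal axis) in each of 12 libraries (vertical axis, linear to 10 reads and logarithmic above, dotted line at 3 reads). POU5F1P3 (166 to 177 reads) and POU5F1P4 (84 to 89) are high in the OSK libraries, while POU5F1P5 and POU5F1P6 stay at or below 3 there.

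Genes that overlap or adjoin the factors were read beside them. SOX2 lies within SOX2-OT, a long noncoding RNA read on the same strand, which had 0, 1 and 2 reads in OSK, 5, 2 and 1 in WT, 26, 3 and 2 in GFP, and 1, 0 and 2 in GSTA4. SOX2-OT was therefore near the floor in the group with 8890 or more SOX2 reads per library. PSORS1C3, inside the POU5F1 gene, had 0 reads in OSK and 3 in all, in GFP replicate 3. TCF19, a cell cycle-linked gene that overlaps POU5F1 on the opposite strand, had 14.2 CPM ± 2.73 in OSK, 7.59 ± 1.10 in GFP, 6.29 ± 1.22 in GSTA4 and 2.27 ± 0.639 in WT (n = 3 each). It rose by 0.90 in OSK against GFP (SE 0.190, edgeR adjusted p 0.000576). The strand setting of the counting is not given, so reads of TCF19 and POU5F1 in the overlap cannot be told apart.

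CCHCR1, next to TCF19, changed by -0.17 (SE 0.146, edgeR adjusted p 0.377), and HCG27 on the other side of POU5F1 had 1 to 14 reads per library. SLC2A3, a glucose transporter, lies on chromosome 12 from 7919230 to 7936275, with the pseudogene NANOGP1 between it and NANOG. SLC2A3 stood at 37.4 CPM ± 2.81 in GFP and 17.3 ± 3.88 in OSK, and fell by 1.11 on the log2 scale (SE 0.120, edgeR adjusted p 1.68e-07). LRRC2, which overlaps TDGF1 on the opposite strand, changed by -0.30 (SE 0.130, adjusted p 0.0625). KLF4P1, a KLF4 pseudogene, had 0 reads in OSK and at most 5 elsewhere. Of the 20 relatives and neighbours in the table, 6 were tested, 3 were higher and 1 lower in OSK than in GFP. Over all tested genes 23.1% were higher and 22.8% lower. The higher ones include POU5F1P3 and POU5F1P4, which passed the count filter only through the OSK libraries, so the count carries no weight of its own.

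Beyond the 10 genes, 38 other genes that are high in human pluripotent cells were examined. In the OSK libraries 21 of them had 0 reads, among them DPPA2, DPPA3, DPPA5, ZFP42, PRDM14, L1TD1, GDF3, FGF4, TERT and LINC-ROR. More than 3 reads in every library of a group were found for 9 genes in OSK, 10 in GFP, 10 in GSTA4 and 12 in WT. In OSK these included DNMT3B, FGF2, NR6A1, PODXL, SALL1, TBX3 and USP44, each of which was above the floor in every WT library too. ESRG, a noncoding RNA of human pluripotent cells, had 2, 2 and 1 reads in OSK, 2 in GFP replicate 1 and 0 in the remaining 8 libraries.

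Of the 38 genes, 11 were tested, and in OSK against GFP 1 was higher and 3 were lower. Over all tested genes 23.1% were higher and 22.8% lower, so the share that was lower in this list was near the background. The 11 tested genes had a median log2 fold change of -0.40, against -0.02 over all tested genes. PODXL, the sialomucin that carries the TRA-1-60 epitope in stem cells and is also an epithelial surface protein, stood at 98.9 CPM ± 6.31 in OSK and 470.6 ± 47.3 in GFP (log2 -2.25, SE 0.0940, adjusted p 7.07e-14).

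PODXL was also lower in OSK than in WT (log2 -0.81, SE 0.0924, edgeR adjusted p 3.27e-07), and higher than in GSTA4 (log2 1.48, adjusted p 1.18e-10). TRIM71, a let-7 target and repressor of differentiation mRNAs, had 3, 5 and 3 reads in OSK and 23, 19 and 34 in GFP (log2 -2.82, SE 0.496, adjusted p 9.18e-05). TRIM71 passed the count filter only through the GFP libraries, so this call, which is among the 3 lower, carries no weight beyond these reads. It had 11, 4 and 10 reads in WT and 6, 3 and 3 in GSTA4, and its differences from these groups did not pass the threshold (edgeR adjusted p 0.133 and 0.881). USP44, a deubiquitinase of the mitotic checkpoint, fell by 0.42 (SE 0.138, adjusted p 0.0174). This call did not hold without any 1 of GFP replicates 1 and 3 and OSK replicates 1 and 3 (edgeR adjusted p up to 0.0785). DNMT3B, the de novo methyltransferase, stood at 2.34 CPM ± 0.402 in OSK and 2.61 ± 0.489 in GFP (log2 -0.15, SE 0.274, adjusted p 0.685). It was higher in OSK than in WT (log2 0.98, SE 0.297, edgeR adjusted p 0.0099), as it was in GFP than in WT (log2 1.13, SE 0.295, adjusted p 0.00917).

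**Figure D4:**
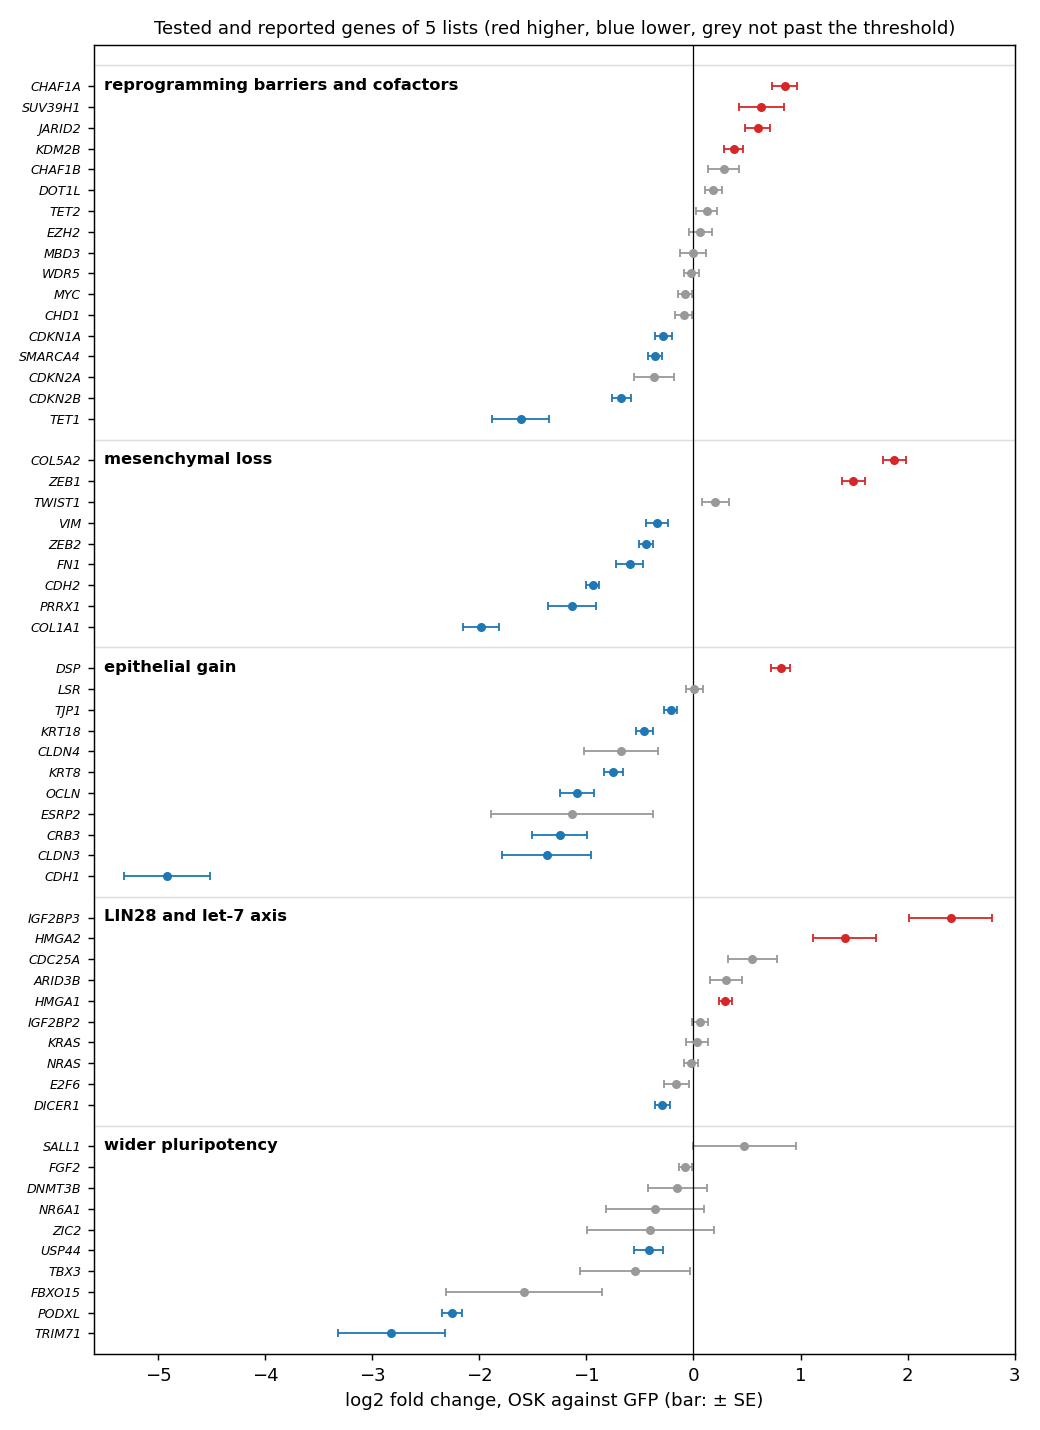
Log2 fold change in OSK against GFP (horizontal axis, bars are ± SE) for the tested genes reported from 5 lists; red is higher, blue lower and grey not past an edgeR adjusted p of 0.05. PODXL (-2.25) and TRIM71 (-2.82) lie to the left among the wider pluripotency genes, and IGF2BP3 (2.40) and HMGA2 (1.41) to the right in the let-7 list.

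Targets of let-7 were examined because LIN28 proteins act on them. Of 12 genes 10 were tested, 3 were higher and 1 lower in OSK than in GFP, with a median of 0.18. Over all tested genes 23.1% were higher and 22.8% lower, so the share that was higher in this list was near the background. IGF2BP3, an oncofetal mRNA-binding protein, had 34, 75 and 67 reads in OSK, 14, 9 and 8 in GFP, 9, 6 and 13 in WT, and 13, 16 and 22 in GSTA4. Every OSK library was above the other 9, and the difference from GFP was 2.40 (SE 0.388, edgeR adjusted p 3.54e-05). It was also higher in OSK than in WT (2.72, SE 0.394, adjusted p 8.51e-06) and than in GSTA4 (1.75, SE 0.363, adjusted p 0.000435).

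HMGA2, a chromatin architectural protein, stood at 7.67 CPM ± 0.678 in OSK, 2.88 ± 0.880 in GFP, 2.25 ± 1.33 in WT and 5.30 ± 0.312 in GSTA4. It rose in OSK against GFP (log2 1.41, SE 0.296, edgeR adjusted p 0.000549), and its difference from GSTA4 did not pass the threshold (log2 0.53, SE 0.275, adjusted p 0.12). HMGA1 rose by 0.30 against GFP (SE 0.0643, adjusted p 0.000713) and was lower in OSK than in GSTA4 by 0.41 (log2 -0.41, SE 0.0632, adjusted p 1.66e-05). Its difference from WT did not pass the threshold (log2 -0.05, SE 0.0634, edgeR adjusted p 0.598), and HMGA1 was lower in GFP than in WT (log2 -0.34, adjusted p 0.000722). DICER1, the let-7 processing enzyme, fell by 0.29 against GFP (SE 0.0702, adjusted p 0.00186). Its difference from WT did not pass the threshold (log2 -0.07, SE 0.0703, edgeR adjusted p 0.425), and DICER1 was higher in GFP than in WT (log2 0.22, adjusted p 0.029). LIN28A and LIN28B themselves had at most 2 reads per OSK library.

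Reprogramming of fibroblasts is known to begin with a gain of epithelial and a loss of mesenchymal genes. ARPE-19 is epithelial in origin, and of 18 genes of the epithelial list 11 were tested, 1 was higher and 7 were lower in OSK than in GFP, with a median of -0.75, against 23.1% higher and 22.8% lower over all tested genes. CDH1, E-cadherin, had 3, 6 and 14 reads in OSK against 215, 161 and 298 in GFP, 32, 37 and 86 in WT, and 1, 5 and 3 in GSTA4. The difference from GFP was -4.92 (SE 0.402, edgeR adjusted p 2.95e-09), from WT -2.63 (SE 0.459, adjusted p 7.79e-05) and from GSTA4 1.30 (SE 0.780, adjusted p 0.182). CRB3, CLDN3 and OCLN, polarity and tight junction genes, fell against GFP by 1.25, 1.37 and 1.09 (edgeR adjusted p 0.000513, 0.0103 and 8.87e-06). For CLDN3 the call was lost without GFP replicate 1 (log2 -1.04, adjusted p 0.0656). DSP, desmoplakin, was the tested gene that rose (log2 0.82, SE 0.0886, adjusted p 1.87e-07). CLDN7, a claudin with too few reads to be tested, had 6, 9 and 18 reads in OSK and at most 1 in any other library.

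Of 14 mesenchymal genes 9 were tested, 2 were higher and 6 lower, with a median of -0.44. The share that was higher lay near the 23.1% of all tested genes, and 22.8% of those were lower. COL1A1 fell by 1.98 (SE 0.165, edgeR adjusted p 3.87e-09), while it was higher in OSK than in GSTA4 (log2 2.21, SE 0.224, adjusted p 5.44e-08), and PRRX1 by 1.13 (SE 0.222, adjusted p 0.000288). ZEB1, a repressor of CDH1, rose from 15.0 CPM ± 1.76 to 42.3 ± 4.6 (log2 1.49, SE 0.111, adjusted p 6.90e-10) and COL5A2 rose by 1.88 (SE 0.107, adjusted p 1.17e-11). ZEB1 was higher in OSK than in WT and GSTA4 too, by 1.42 and 1.10 (edgeR adjusted p 9.54e-10 and 3.23e-08). ZEB2, of the same list, fell by 0.44 against GFP (SE 0.0689, edgeR adjusted p 2.18e-05). In both lists more of the tested genes were lower than higher. CDH1 stood at 0.215 CPM in GSTA4, 0.525 in OSK and 16.0 in GFP, and ZEB1 at 19.7, 42.3 and 15.0. A link between CDH1 and ZEB1 was not tested.

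**Figure D5:**
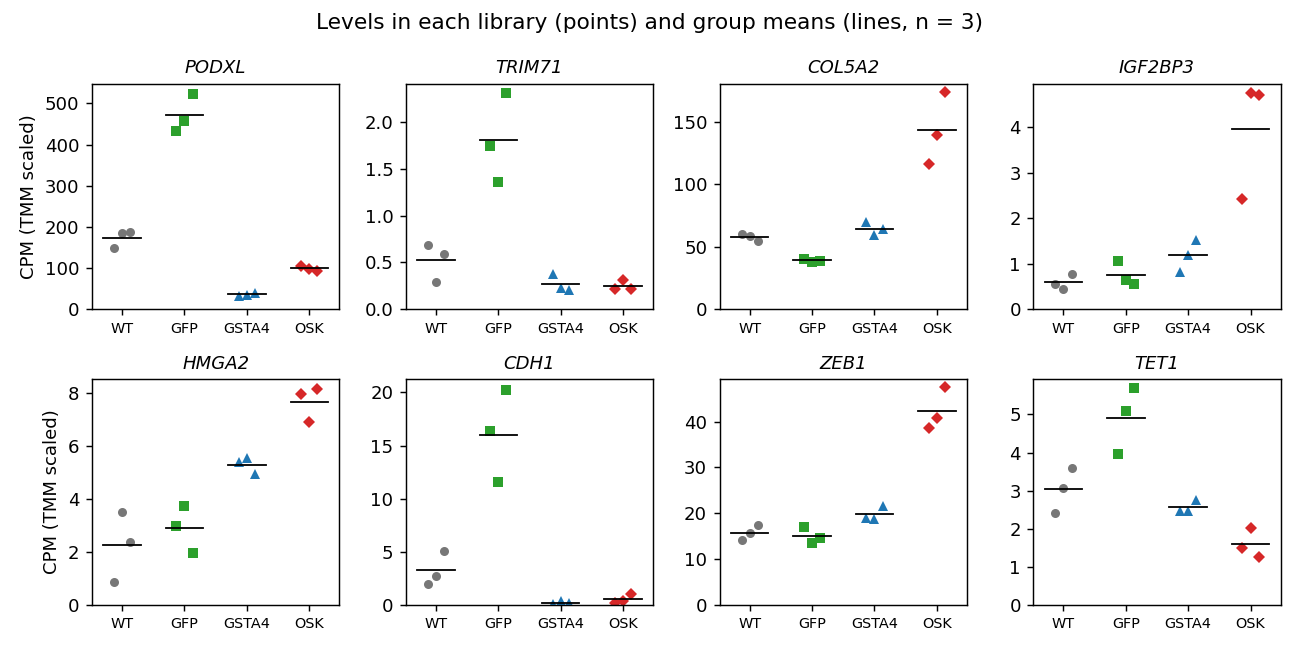
CPM after TMM scaling (vertical axes, each from 0) of 8 genes in each library by group; lines are group means (n = 3). IGF2BP3 and ZEB1 are highest in every OSK library, TRIM71 and CDH1 are highest in GFP, and PODXL is lowest in GSTA4.

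Among 20 genes that hinder or assist reprogramming, 18 were tested, with 4 higher and 5 lower in OSK than in GFP and a median of -0.01. Both shares lay near those over all tested genes, 23.1% higher and 22.8% lower. TET1, which oxidises methylcytosine and takes part in activating pluripotency genes, stood at 1.59 CPM ± 0.389 in OSK and 4.91 ± 0.888 in GFP (log2 -1.61, SE 0.263, edgeR adjusted p 3.80e-05). It was also lower than in WT (log2 -0.92, SE 0.271, adjusted p 0.00868). The difference of TET1 from GSTA4 did not pass the threshold (log2 -0.68, SE 0.278, edgeR adjusted p 0.0509). TET1 was lower in GSTA4 than in GFP (log2 -0.94, adjusted p 0.00705) and higher in GFP than in WT (log2 0.70, adjusted p 0.0443). CHAF1A, a histone chaperone subunit whose loss eases reprogramming, rose by 0.85 (SE 0.114, adjusted p 3.33e-06). CDKN2B, a cell cycle inhibitor, fell by 0.67 (SE 0.0910, adjusted p 3.81e-06). CDKN2B was also lower in OSK than in WT (log2 -1.24, edgeR adjusted p 4.41e-10), but higher than in GSTA4 (log2 1.12, adjusted p 3.84e-09). SUV39H1, a histone H3K9 methyltransferase, was higher by 0.63 (SE 0.211, adjusted p 0.0185), which did not pass without any 1 of GFP replicates 2 and 3 and OSK replicate 1 (edgeR adjusted p up to 0.072). Other called genes were JARID2 and KDM2B, which were higher, and CDKN1A and SMARCA4, which were lower. MYC, the factor often added to OSK, changed by -0.08 (SE 0.0653, adjusted p 0.349).

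Markers of the cell types that reprogrammed cells could pass into were read in the same way, mainly as counts and summed CPM. In OSK, 4 of 10 neuroectoderm, 3 of 8 endoderm, 2 of 8 mesoderm, 4 of 11 trophoblast and 1 of 7 germ cell markers were above the floor in every library. In GFP these were 4, 3, 3, 5 and 1. The summed endoderm markers ran from 37.2 to 46.3 CPM in OSK and from 67.9 to 85.7 in GFP, mostly GATA6, and the mesoderm markers from 24.0 to 25.7 and from 59.2 to 70.1, mostly KDR. The neuroectoderm sum ran from 400.3 to 401.7 CPM in OSK and from 388.0 to 420.1 in GFP, and the trophoblast sum from 621.6 to 691.7 and from 1097 to 1300. Germ cell markers summed to at most 1.33 CPM in an OSK library. SOX17, FOXA2, TBXT, MIXL1, ELF5 and CDX2, which define endoderm, mesoderm and trophoblast, had 0 reads in OSK. Of 4 tested neuroectoderm markers 1 was higher in OSK than in GFP, SIX3 (log2 0.57, edgeR adjusted p 1.24e-06). LHX2 was the 1 that was lower (log2 -0.71, adjusted p 4.07e-08). Over all tested genes 23.1% were higher and 22.8% lower. SIX3 was higher than in WT and GSTA4 too (0.66 and 0.61, adjusted p 1.66e-07 and 3.79e-07). LHX2 was lower than in WT too (log2 -0.95, edgeR adjusted p 3.97e-10), and its difference from GSTA4 did not pass the threshold (adjusted p 0.105). Of 5 tested trophoblast markers 1 was higher than in GFP, TFAP2A (log2 0.39, edgeR adjusted p 0.0408), and 2 were lower. The lower ones were KRT7 (log2 -0.85, adjusted p 8.31e-07) and TP63 (log2 -3.30, adjusted p 5.84e-05). The difference of TFAP2A from WT did not pass the threshold (edgeR adjusted p 0.106). Against GSTA4, TFAP2A and KRT7 were higher in OSK (adjusted p 0.00602 and 0.015), and TP63 did not pass (0.867). The RPE markers were lower in OSK than in GFP for 10 of 13 tested and higher for 2, where 22.8% of all tested genes were lower and 23.1% higher. Against WT they were lower for 3 and higher for 4, where 22.7% of all tested genes went each way.

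The genes most like the factors in pattern were found by Pearson's r of log2 CPM over the 12 libraries. TM4SF1, a tetraspanin-like surface protein, was among the first 3 for POU5F1, SOX2 and KLF4 (r 0.997, 0.997 and 0.996). It stood at 1084 CPM ± 49.0 in OSK and 53.5 to 63.7 in the other 9 libraries. The others were MS4A2 and NIPAL3 for POU5F1 (r 0.997 for both), POU5F1P4 and TRIM2 for SOX2 (both 0.997), and PLPP1, which ranked first, and CAPRIN2 for KLF4 (0.997 and 0.995). PLPP1 stood at 139.5 CPM ± 1.43 in OSK and 9.04 to 14.1 elsewhere. These values follow from the gap between OSK and the other groups, which all such genes share; ranking by Spearman's rho gave other genes, with 0 of 3 in common for each factor.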

How the data were processed

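The authors deposited 1 table of unnormalised counts, with a line per gene and a column per library. STAR 2.7.1a, featureCounts 1.6.2 and human and mouse builds (GRCh38, GRCm38) are named in the submitters' processing notes, without role or order; annotation release and strand setting are not given in the sources used here. Lines without a symbol (20014, 0.485% to 0.822% of reads) were left out. Counts were fitted with edgeR 4.0.16 (limma 3.58.1, R 4.3.3): filterByExpr, TMM, a mean per group over all 12 libraries, quasi-likelihood test, Benjamini-Hochberg over 15179 genes per contrast, threshold 0.05. SE is the log2 fold change over the root of F. DESeq2 1.42.0 was an alternative. On simulated OSK against GFP counts over 15179 genes the test recovered 45.7%, 67.2% and 82.6% of genes changed by 0.5, 1 and 2 (log2), with 8 false calls. Only 70, 61 and 69 genes were changed by these amounts, in OSK alone, with 1 common mean for the rest. In the data 6962 genes were called in this comparison, so these rates need not hold there. Positions and lengths are from GENCODE 29 (GRCh38), pseudogene identity from blastn 2.17.0.

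The members and lists were chosen with earlier results of these data known; lists were written by hand. Named were the members; of each list up to 4 called genes with the largest change in OSK against GFP, at least 1 CPM in either group and no overlap of libraries; relatives with 10 reads or more in all; the 3 most alike genes per tested member; and leading markers. Other genes were named after their values were seen, and 3 genes of the lists are not reported here by name, though the list counts and medians include them. Alternatives were RLE scaling, library size alone, the ORF genes left out of scaling, DESeq2, no count filter, a mean over all libraries of 1 CPM or more, the replicate number as a block, the 6 libraries compared, each library left out, and lines without a symbol included.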

Additional observations from a re-analysis of the deposited data

How the results depend on the processing

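The calls of POU5F1, SOX2 and KLF4 in OSK against GFP, WT and GSTA4 held under every alternative run, as did the list counts to within 1.5 times. The number of members past the threshold in GSTA4 against GFP ran from 0 to 2 and in GFP against WT from 0 to 1 when single libraries were left out, and both were 0 when only the 6 libraries compared were fitted; these calls rest on few reads, and the cause was not tested. The change of POU5F1 in GFP against WT, 0.50 and not past the threshold, became -0.10 without GFP replicate 1 and 1.59 without WT replicate 1 (edgeR adjusted p 0.257 to 0.951 over all alternatives). The most alike genes shared 0 of 3 under Spearman's rho. With 10 reads in place of 3 as the floor, 0 downstream genes were detected in OSK, as before. With the replicate number as a block, OSK against GFP gave 7270 calls in place of 6962 and 3 members, and GFP against WT gave 3779 in place of 3369. Same-numbered libraries correlated from -0.02 to 0.17 (median 0.03), with 3 of 18 pairs over 0.1. Differently numbered libraries correlated from -0.11 to 0.09 (median -0.03), with 0 of 36 pairs over 0.1. The main fit takes no pairing from the numbers, and whether same-numbered libraries share a source was not tested. The block left the calls of all genes named from the lists as they were except LRRC2, whose edgeR adjusted p ran from 0.00996 to 0.196 over the alternatives. The pooled ratios without single libraries were added after the data were seen. Depth limits the downstream genes to statements about more than 3 reads per library.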
